A study of Mus musculus with 12 samples.

Results

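The genes described here are 9 markers of sensory neurons, read in peritoneal macrophages (PMs) of the mouse that had been given exosomes of sensory neurons. The list was *Trpv1*, *P2rx3* and *Mrgprd* (receptors), *Scn9a* and *Scn10a* (sodium channels), *Tac1* and *Calca* (neuropeptide precursors), and *Prph* and *Nefh* (intermediate filaments). Of the 9 genes, 7 had a probe set with their symbol in the platform annotation and were measured, out of 18193 genes in all. *Calca* and *Mrgprd* are only named here. For each gene the probe set with the highest mean signal over all arrays was taken, so the choice used no comparison between groups. The questions were whether these signals stand above those of dim genes, and whether they differ with the exosomes the PMs were given.

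The data were 12 Affymetrix mouse expression arrays in 6 groups of 2. Antagomir-21 is antisense to miR-21 and, as the paper reports for PMs, lowered it only in part. PMs had been transfected with it, with a scramble oligonucleotide, or with lipofectamine, the transfection reagent, which the labels give as a separate treatment. Each was then exposed to exosomes of cultured sensory neurons that overexpressed miR-21 ("miR-21 exosomes") or a GFP reporter ("GFP exosomes"). That the GFP arrays received exosomes, and that these came from sensory neurons, stands in the description shared by all samples, whereas their titles name the reporter alone. Read in this way, all 6 groups received exosomes of sensory neurons, and arrays of PMs without exosomes, of neurons or of exosomes alone are not analysed here. Neuronal RNA carried in by exosomes and a signal of the PMs themselves, or of the probe set without its RNA, cannot be told apart from these arrays, and on that reading a comparison is possible only between the exosome preparations.

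Sensory neurons of the dorsal root ganglion carry heat, pain, itch and touch signals, and nociceptors among them are known by ion channels and peptides that few other cells make. TRPV1 is the capsaicin and heat receptor, P2X3 an ATP-gated channel of nociceptors, and Nav1.7 and Nav1.8, encoded by *Scn9a* and *Scn10a*, are sodium channels that shape their action potentials. *Tac1* encodes the precursor of substance P, *Calca* that of CGRP, *Mrgprd* marks nonpeptidergic nociceptors, *Prph* encodes peripherin of small-diameter neurons and *Nefh* the heavy neurofilament of myelinated ones. Exosomes are small vesicles that cells release with proteins, microRNAs and some mRNA inside. The microRNA of this design is shown because it is what the neuronal exosomes were made to carry and what antagomir-21 binds; the arrays do not read it. Its seed, bases 2 to 8, is in capitals, and the sequence is that of RefSeq (GRCm38.p6, chr11:86584120-86584141, minus strand).
mmu-miR-21a-5p: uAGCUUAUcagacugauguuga

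The arrays read macrophage genes strongly: *Lyz2*, which encodes lysozyme, had a mean log2 signal of 16.94 ± 0.82, *Csf1r*, which encodes the M-CSF receptor, 16.43 ± 0.67, and *Lgals3*, which encodes galectin-3, 15.64 ± 0.72 (SD, n = 12 arrays each). All 14 macrophage markers had a mean above the median gene, the lowest at 8.43. Arrays of one group were not more alike than others: their mean correlation over all genes was 0.591 (6 pairs), against 0.602 for arrays of different groups (60 pairs). A list of 39 olfactory receptor genes, taken by their symbols, gave the signal of dim genes. Their gene means had a median of 6.62, against 7.91 for all genes. Whether macrophages use single genes of this list was not checked. Probe sets differ in how well they bind, so values of different genes are set side by side as signals, not as amounts of RNA.

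The 7 sensory neuron markers were read at the signal of olfactory receptor genes. Their gene means had a median of 6.70, and 1 of 7, *Tac1*, lay above the median gene. Of their 84 signals, 7 genes on 12 arrays, 21 (25%) exceeded the upper quartile of the olfactory receptor genes on the same array, which the olfactory receptor genes themselves exceeded in 120 of 468 cases (25.6%) by its construction. *Tac1* gave 7 of the 21, and without it the count was 14 of 72 (19.4%). When all 17 probe sets of the 7 genes were counted in place of the brightest of each, 29 of 204 signals (14.2%) exceeded that quartile. Photoreceptor genes, a second list used in this way, had a median of 7.29 (11 genes). Of the 84 marker signals, 22 exceeded the upper quartile of that list. No value of a marker was at 0, and the table gives no detection call, so a signal in this range does not show that the RNA was there or that it was not.

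**Figure D1:**
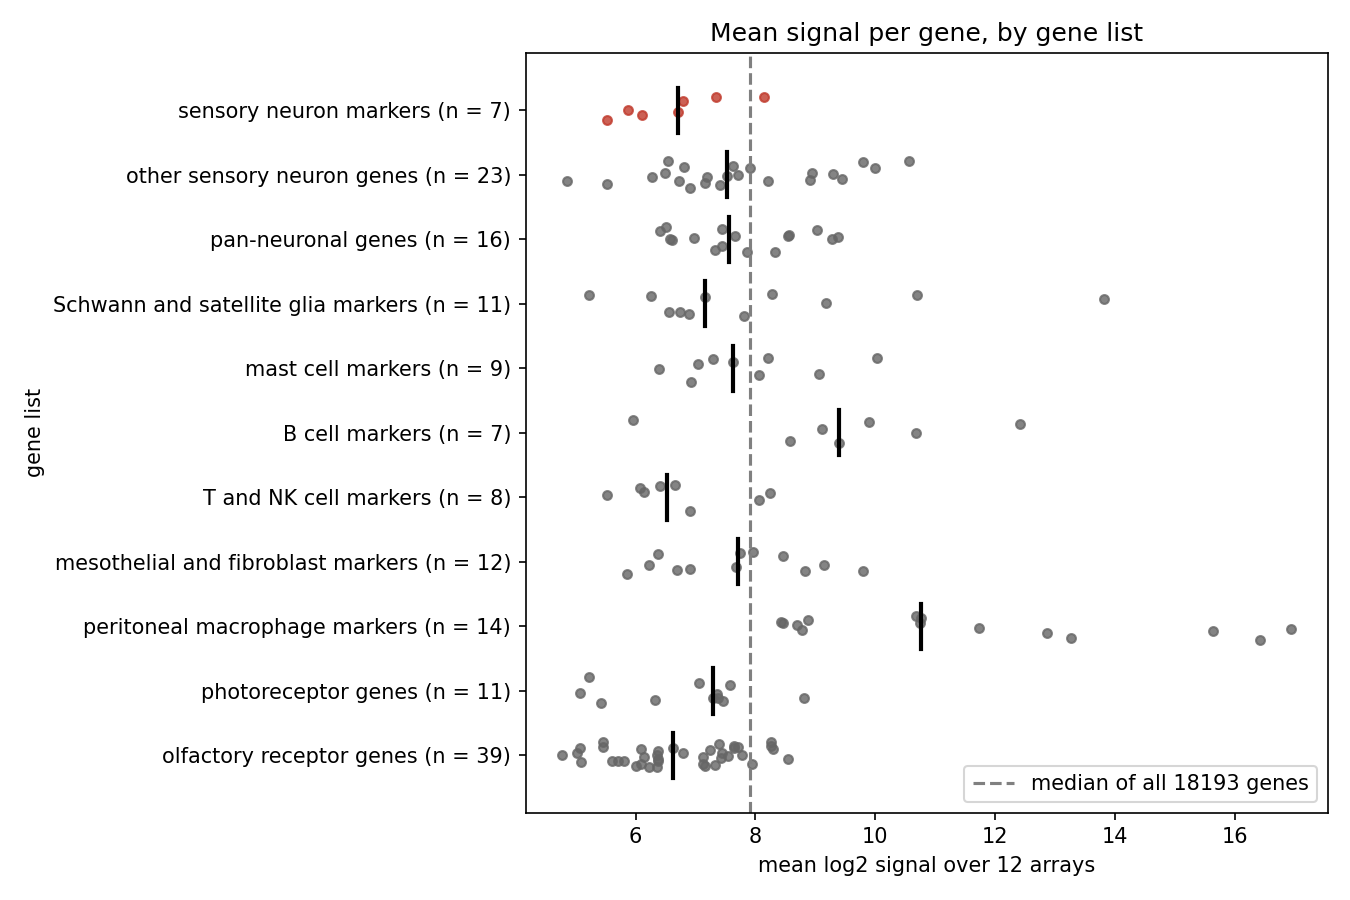
Mean log2 signal over 12 arrays (x axis) of each measured gene, by gene list (y axis), with a black bar at the median of each list and a dashed line at the median of all genes, 7.91. The 7 sensory neuron markers (red, median 6.70) lie over the same range as the olfactory receptor genes (median 6.62). Macrophage markers (median 10.76) lie mostly to the right of both, but their lowest mean, 8.43, is below the highest olfactory receptor mean, 8.55.

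Other lists of neuronal genes were read slightly higher, with a few bright genes in each. Of 26 other genes of sensory neurons, 23 were measured, with a median of gene means of 7.53, and 9 of them lay above the median gene. The brightest were *Pou4f1*, a transcription factor of sensory neurons (10.57 ± 1.001), *Piezo2*, the touch receptor channel (9.9997 ± 1.004), and *Runx1*, a transcription factor that blood cells also use (9.79 ± 1.54; SD, n = 12 each). The 16 genes that neurons in general use had a median of 7.55, led by *Ina* (9.38 ± 0.86), *Syt1* (9.28 ± 0.94) and *Mapt* (9.03 ± 0.75; SD, n = 12 each). These genes encode a neurofilament subunit, a vesicle calcium sensor and the protein tau.

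Markers of other cells that a peritoneal lavage or a ganglion culture can hold were read as well. B cell markers had a median of 9.40 (7 genes), with *Ms4a1*, which encodes CD20, at 12.41 ± 0.81. Markers of Schwann cells and satellite glia had a median of 7.15 (11 genes), with *Pmp22*, a myelin protein that other cells make too, at 13.82 ± 0.89 and *Fabp7*, a fatty acid binding protein of glia, at 10.70 ± 0.50. Medians were 7.62 for mast cell markers (9 genes), 7.71 for mesothelial and fibroblast markers (12 genes) and 6.53 for T and NK cell markers (8 genes), and mast cell *Cpa3* and fibroblast *Dcn* averaged 10.02 ± 0.90 and 9.79 ± 1.09 (SD, n = 12 each). The genes named so far are the brightest of their lists. Means above the median gene were found for 6 of 7 B cell, 4 of 11 glial and 4 of 9 mast cell markers. They were also found for 5 of 12 mesothelial and fibroblast and 2 of 8 T and NK cell markers. Among the dimmer genes were *Sox10* (7.15) and *Mag* (5.22) of glia, *Mcpt4* (6.39) of mast cells and *Lum* (6.23) of fibroblasts. The part of these cells in the marker signals was not tested. In bulk RNA fewer cells of a type and less RNA per cell cannot be told apart.

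The marker signals varied widely from array to array. The median difference between the 2 arrays of a group was 1.74 on the log2 scale (42 differences, 17 of them above 2, the largest 5.34), against 1.48 for olfactory receptor genes and 0.83 for macrophage markers. The SD within groups was between 1.06 for *P2rx3* and 2.03 for *Scn9a*, with a median of 1.498. That median was 1.39 over all genes, 1.67 for olfactory receptor genes and 1.59 for photoreceptor genes. The 7 genes did not move as a set either: over the 12 arrays, which also differ in their overall distribution, the 21 pairs of markers had Pearson's r between −0.62 (*Scn10a* and *Tac1*) and 0.58 (*Trpv1* and *P2rx3*), with a median of 0.20 and 7 pairs below 0. The median of the 7 markers lay between 4.46 and 9.22 on single arrays. It was lowest on antagomir-21 with GFP exosomes replicate 1 and highest on scramble with GFP exosomes replicate 1.

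**Figure D2:**
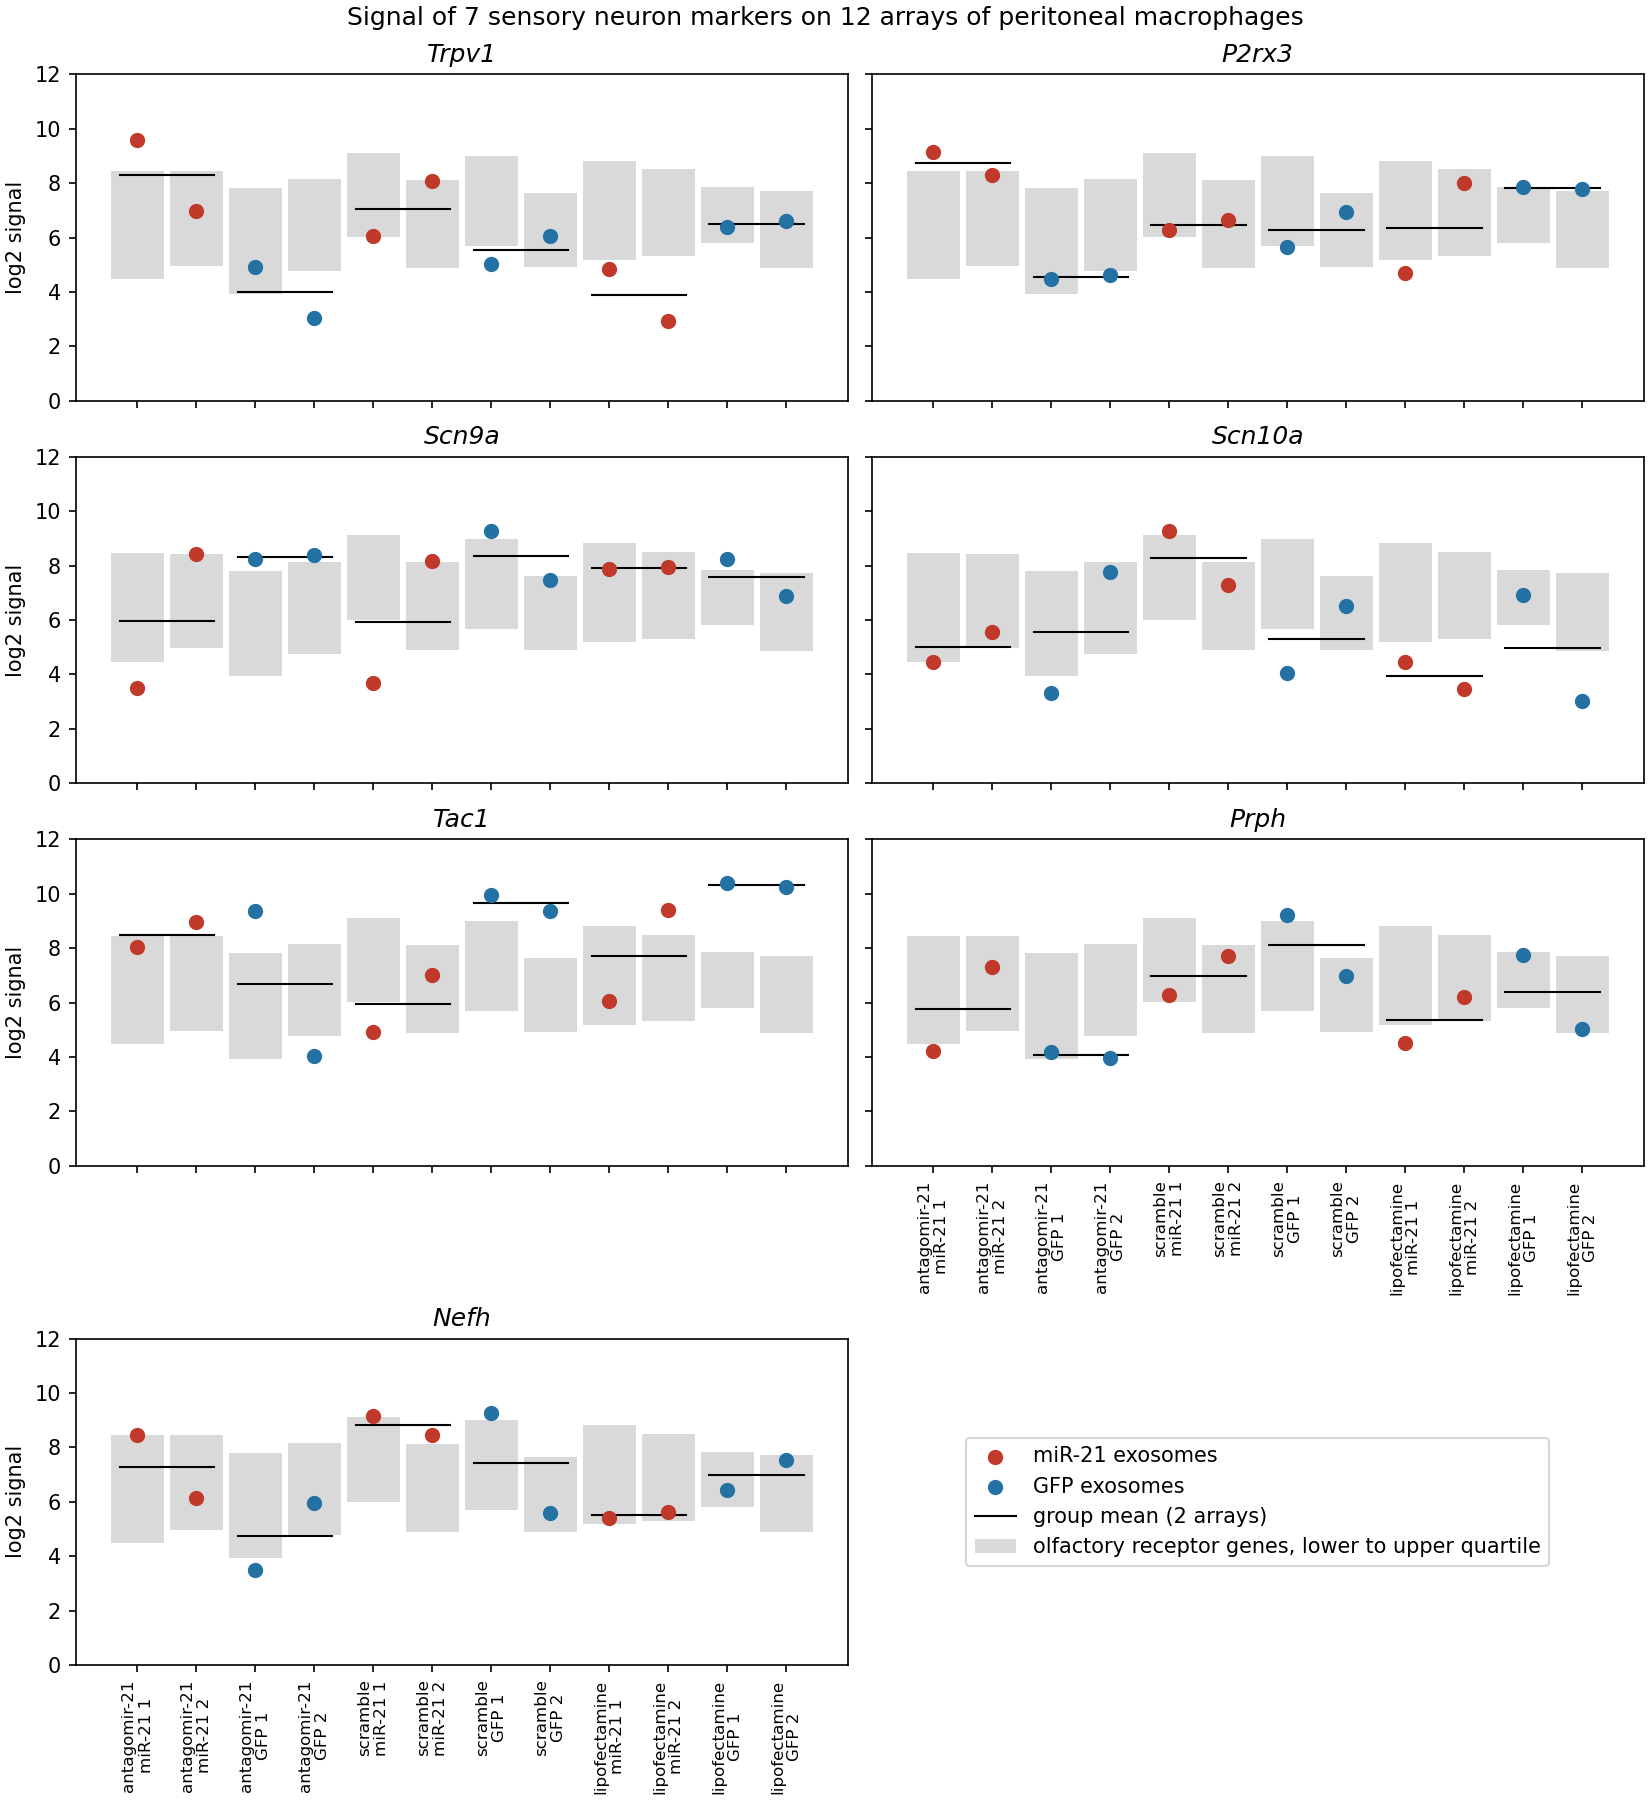
Log2 signal (y axis) of each of the 7 measured markers on the 12 arrays (x axis), for miR-21 exosomes (red) and GFP exosomes (blue), with black lines at the mean of each group of 2 arrays and gray bars from the lower to the upper quartile of 39 olfactory receptor genes on that array. Most points fall inside or below the gray bars; 21 of 84 lie above them, 7 of these of *Tac1*.

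*Trpv1* (gene ID 193034, 1 probe set) had a mean signal of 5.88 ± 1.91 (SD, n = 12), above 7.15% of all genes, and exceeded the olfactory receptor quartile on 1 array. After antagomir-21 it was at 9.58 and 6.98 with miR-21 exosomes and at 4.93 and 3.06 with GFP exosomes. After scramble it was at 6.05 and 8.07 with miR-21 exosomes and at 5.01 and 6.05 with GFP exosomes, and after lipofectamine at 4.84 and 2.93 with miR-21 exosomes and at 6.40 and 6.62 with GFP exosomes. The single bright array was thus antagomir-21 with miR-21 exosomes replicate 1, and the order of the 2 exosomes turned round after lipofectamine. In the order of group means, antagomir-21 with miR-21 exosomes (8.28 ± 1.84; SD, n = 2) came first and lipofectamine with miR-21 exosomes (3.88 ± 1.35; SD, n = 2) last. Of neighbors in this order, scramble with miR-21 exosomes overlapped both with antagomir-21 with miR-21 exosomes and with lipofectamine with GFP exosomes, and antagomir-21 with GFP exosomes overlapped with lipofectamine with miR-21 exosomes.

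*P2rx3* (gene ID 228139, 3 probe sets) averaged 6.70 ± 1.58 (SD, n = 12), above 21.6% of all genes, and exceeded the quartile on 3 arrays. After antagomir-21 it was at 9.16 and 8.31 with miR-21 exosomes and at 4.46 and 4.62 with GFP exosomes. After scramble it was at 6.28 and 6.63 with miR-21 exosomes and at 5.66 and 6.92 with GFP exosomes, and after lipofectamine at 4.71 and 8.01 with miR-21 exosomes and at 7.87 and 7.77 with GFP exosomes. The exosome groups were apart after antagomir-21 and overlapped after scramble and lipofectamine.

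The sodium channel genes differed in brightness, and each had a group whose 2 arrays were more than 4 apart on the log2 scale. *Scn9a* (gene ID 20274, 5 probe sets) averaged 7.34 ± 1.84 (SD, n = 12). It was at 3.51 and 8.42 with miR-21 exosomes and at 8.23 and 8.39 with GFP exosomes after antagomir-21, and at 3.68 and 8.16 with miR-21 exosomes and at 9.27 and 7.47 with GFP exosomes after scramble. After lipofectamine it was at 7.89 and 7.95 with miR-21 exosomes and at 8.26 and 6.88 with GFP exosomes. On 10 of the 12 arrays *Scn9a* lay between 6.88 and 9.27, and the 2 low arrays were replicates 1 of antagomir-21 and scramble with miR-21 exosomes. *Scn10a* (gene ID 20264, 1 probe set), at 5.51 ± 2.02 (SD, n = 12), was the dimmest of the 7, above 3.51% of all genes. It was at 4.47 and 5.56 with miR-21 exosomes and at 3.33 and 7.76 with GFP exosomes after antagomir-21, and at 9.28 and 7.30 with miR-21 exosomes and at 4.07 and 6.51 with GFP exosomes after scramble. After lipofectamine it was at 4.45 and 3.47 with miR-21 exosomes and at 6.93 and 3.04 with GFP exosomes. Only scramble with miR-21 exosomes replicate 1 exceeded the olfactory receptor quartile.

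*Tac1* (gene ID 21333, 2 probe sets) was the brightest marker, with a mean of 8.14 ± 2.16 (SD, n = 12), above 55.2% of all genes and 89.7% of the olfactory receptor genes, and exceeded the quartile on 7 arrays. After antagomir-21 it was at 8.04 and 8.95 with miR-21 exosomes and at 9.36 and 4.02 with GFP exosomes. After scramble it was at 4.91 and 7.01 with miR-21 exosomes and at 9.95 and 9.36 with GFP exosomes, and after lipofectamine at 6.04 and 9.41 with miR-21 exosomes and at 10.40 and 10.26 with GFP exosomes. With GFP exosomes 5 of 6 arrays were thus between 9.36 and 10.40 and 1 was at 4.02. The brightness belonged to 1 of the 2 probe sets. The other probe set annotated to *Tac1* averaged 6.05 ± 1.92 (SD, n = 12) and exceeded the quartile on 1 array, scramble with miR-21 exosomes replicate 1, where it was at 9.76 and the brighter probe set at 4.91.

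The filament genes were in the range of the receptors. *Prph* (gene ID 19132, 4 probe sets) averaged 6.11 ± 1.72 (SD, n = 12). It was at 4.23 and 7.30 with miR-21 exosomes and at 4.17 and 3.98 with GFP exosomes after antagomir-21, at 6.26 and 7.71 with miR-21 exosomes and at 9.22 and 6.98 with GFP exosomes after scramble, and at 4.52 and 6.20 with miR-21 exosomes and at 7.76 and 5.02 with GFP exosomes after lipofectamine. *Nefh* (gene ID 380684, 1 probe set) averaged 6.79 ± 1.77 (SD, n = 12). It was at 8.44 and 6.15 with miR-21 exosomes and at 3.49 and 5.96 with GFP exosomes after antagomir-21, at 9.15 and 8.47 with miR-21 exosomes and at 9.28 and 5.59 with GFP exosomes after scramble, and at 5.42 and 5.62 with miR-21 exosomes and at 6.43 and 7.52 with GFP exosomes after lipofectamine. The groups with the highest means were scramble with GFP exosomes for *Prph* and scramble with miR-21 exosomes for *Nefh*, and both genes lay above the quartile on scramble with GFP exosomes replicate 1, the only such array of *Prph*.

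Set against each other over all transfections, miR-21 and GFP exosomes gave no difference larger than the spread of the arrays in any of the 7 measured markers. With 6 arrays each, 4 markers had a higher mean with miR-21 exosomes and 3 a lower one, and the values overlapped for all 7. The largest log2 fold changes, miR-21 over GFP exosomes, were −1.50 for *Tac1* (SE 1.12; 95% CI −3.94 to 0.94; 7.39 ± 1.74 against 8.89 ± 2.43) and −1.48 for *Scn9a* (SE 0.99; 95% CI −3.64 to 0.67; 6.60 ± 2.34 against 8.08 ± 0.82). *Trpv1* was at 1.06 (95% CI −1.21 to 3.34), *P2rx3* at 0.97 (−0.99 to 2.92), *Nefh* at 0.83 (−1.07 to 2.72), *Scn10a* at 0.48 (−1.77 to 2.73) and *Prph* at −0.15 (−1.93 to 1.63). The median over the 7 was 0.48, against −0.02 for all genes.

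None of the 7 passed limma's test in this comparison, at an adjusted p under 0.05 over all genes (lowest adjusted p = 0.945) or at an unadjusted p under 0.05, which 5.36% of all genes passed, and the unpaired test also called 0. The adjusted threshold was passed by 0.0% of all genes in the 9 comparisons run. When the array on which *Tac1* was at 4.02 (GFP exosomes after antagomir-21, replicate 2) was left out, its log2 fold change was −2.58 (adjusted p = 0.749 from limma) and it passed at an unadjusted p, and *P2rx3* did so at 1.68 (adjusted p = 0.896) without lipofectamine with miR-21 exosomes replicate 1. Of the other sensory neuron genes, 1 of 23 passed at an unadjusted p under 0.05, in the lower direction, and of the genes of neurons in general 2 of 16, 1 in each direction.

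**Figure D3:**
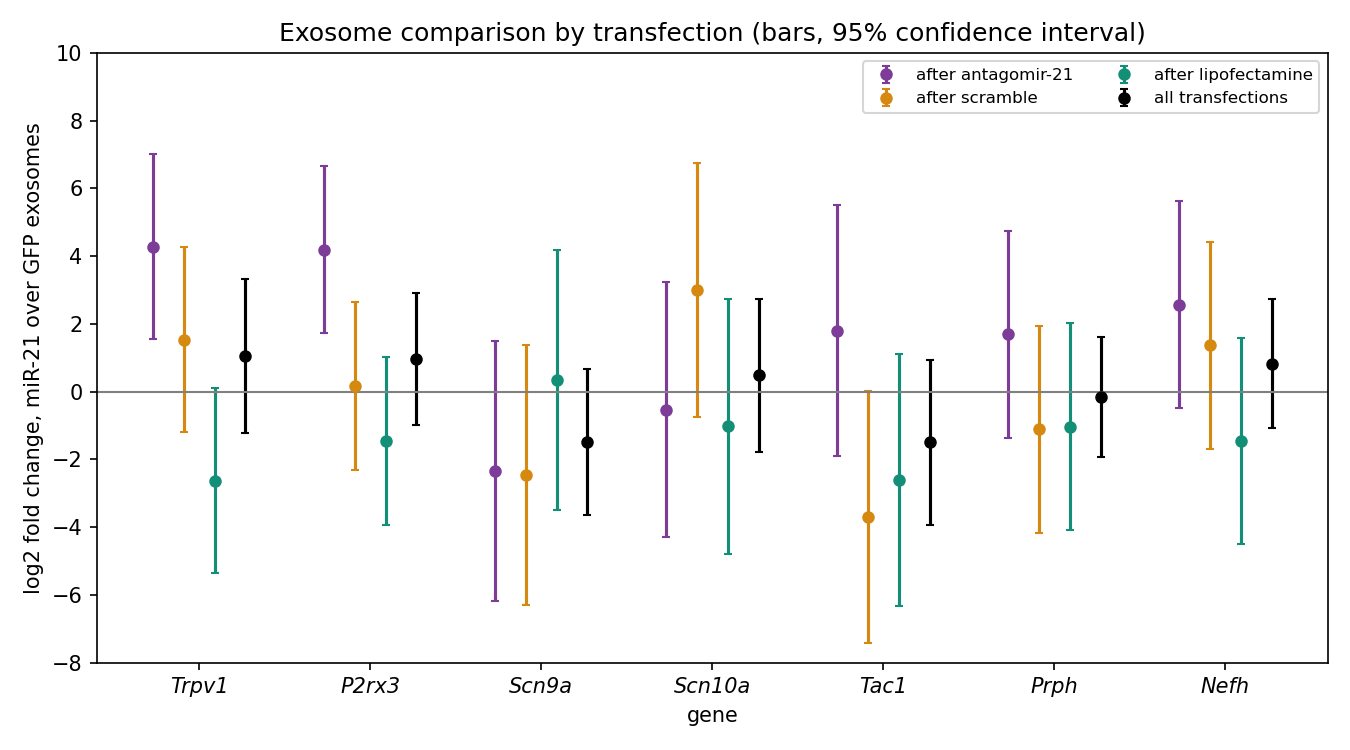
Log2 fold change, miR-21 over GFP exosomes (y axis), of the 7 measured markers (x axis) after each transfection (2 arrays against 2) and over all transfections (6 against 6, black), with bars for the 95% confidence interval of the limma fit. All black intervals hold 0, and *Trpv1* and *P2rx3* after antagomir-21 are at 4.28 and 4.19.

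After antagomir-21 the signals of *P2rx3* and *Trpv1* were above those with GFP exosomes when miR-21 exosomes were given, without overlap of the arrays. Neither gene passed the adjusted test. *P2rx3* averaged 8.73 ± 0.60 against 4.54 ± 0.12 (SD, n = 2 each), which is 4.19 on the log2 scale (SE 1.11; 95% CI 1.72 to 6.66; adjusted p = 0.516 by limma). *Trpv1* averaged 8.28 ± 1.84 against 3.99 ± 1.32 (SD, n = 2 each), which is 4.28 (SE 1.23; 95% CI 1.55 to 7.02; adjusted p = 0.516). These were the 2 of 7 markers that passed an unadjusted p under 0.05, which 5.68% of all genes did. *Nefh* (log2 fold change 2.57), *Prph* (1.69) and *Tac1* (1.81, with overlapping arrays) had higher means with miR-21 exosomes. *Scn10a* (−0.53) and *Scn9a* (−2.34) had lower ones, also with overlap. The median over the 7 was 1.81, against −0.08 for all genes.

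The value of *Trpv1* rested on single arrays more than that of *P2rx3*, which passed the unadjusted threshold with each array left out. *Trpv1* no longer passed the unadjusted threshold when replicate 1 with miR-21 exosomes was left out (log2 fold change 2.99, adjusted p = 0.729 from limma) or when replicate 2 with GFP exosomes was (3.35, adjusted p = 0.889), nor with the unpaired test on the 4 arrays. The olfactory receptor quartile was at 8.45 and 8.44 on the 2 arrays with miR-21 exosomes, where *P2rx3* was at 9.16 and 8.31 and *Trpv1* at 9.58 and 6.98, and an exact 2-sided permutation test of 2 arrays against 2 cannot give a p below 0.333.

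After scramble and after lipofectamine 0 of the 7 markers passed at an unadjusted p under 0.05 with limma, against 5.7% and 3.84% of all genes, and 0 with the unpaired test; these are counts by the brightest probe set of each gene. The largest differences after scramble were those of *Tac1*, 5.96 ± 1.49 with miR-21 exosomes against 9.65 ± 0.41 with GFP exosomes (log2 fold change −3.70, SE 1.67, adjusted p = 0.882 from limma), and of *Scn10a*, 8.29 ± 1.40 against 5.29 ± 1.73 (3.002, SE 1.69, adjusted p = 0.965; SD, n = 2 each). The arrays of the 2 exosomes did not overlap for either gene. For 2 arrays against 2, such a separation has an exact 2-sided permutation p of 0.333. By its brightest probe set *Tac1* passed at an unadjusted p with limma after each change of the scaling that was tried. The other probe set of *Tac1* went the other way after scramble, at 1.33. After lipofectamine *Trpv1* was lower with miR-21 exosomes, at 3.88 ± 1.35 against 6.51 ± 0.15 (log2 fold change −2.62, SE 1.23, adjusted p = 0.999; SD, n = 2 each), and so was *Tac1* at 7.72 ± 2.38 against 10.33 ± 0.10 (−2.61, SE 1.67). Here 6 of 7 markers had the lower mean with miR-21 exosomes, with a median of −1.46, against −0.02 for all genes. After antagomir-21, 5 of 7 had the higher mean. The count after lipofectamine went with the probe set. Higher with miR-21 exosomes were 3 of 4 probe sets of *Prph*, 3 of 5 of *Scn9a* and 1 of 3 of *P2rx3*. Of the 2 of *Tac1*, the dimmer one was higher, at 2.68. The test of whether the exosome difference itself changed with the transfection gave 2 of 7 markers at an unadjusted p under 0.05, *Trpv1* (adjusted p = 0.834 from limma) and *P2rx3* (adjusted p = 0.892), against 4.94% of all genes.

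With the exosomes held the same, antagomir-21 and scramble differed most in *Prph* with GFP exosomes and in *Scn10a* with miR-21 exosomes. With GFP exosomes *Prph* averaged 4.08 ± 0.14 after antagomir-21 and 8.10 ± 1.58 after scramble (SD, n = 2 each), that is, −4.03 on the log2 scale (SE 1.38, adjusted p = 0.735 by limma). It was 1 of 7 markers past an unadjusted p under 0.05, against 5.38% of all genes, and the mean of its 4 probe sets gave −1.71, which did not pass. Taken singly, 2 of the 4 probe sets of *Prph* passed, and so did 1 dimmer probe set of *Scn9a* at 2.92, against −0.06 for its brightest. Without scramble with GFP exosomes replicate 1, where *Prph* was at 9.22, the value was −2.91, and without replicate 2 of antagomir-21 with GFP exosomes it was −3.93; neither passed the unadjusted threshold. In the same comparison 6 of 7 markers had the lower mean after antagomir-21, with a median of −1.76, and of the other sensory neuron genes 18 of 23, with a median of −0.76 (3 past an unadjusted p, 1 higher and 2 lower), against a median of 0.03 for all genes. With miR-21 exosomes 0 of 7 passed with limma, against 5.3% of all genes, and 1, *P2rx3*, with the unpaired test. *Prph* was at −1.22 there, with overlapping arrays. *Scn10a* was at 5.01 ± 0.77 after antagomir-21 and 8.29 ± 1.40 after scramble (log2 fold change −3.28, SE 1.69), and *P2rx3* at 8.73 ± 0.60 after antagomir-21 and 6.46 ± 0.25 after scramble (2.27, SE 1.11; SD, n = 2 each).

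With miR-21 exosomes, scramble and lipofectamine, the pair without antagomir-21, differed most in *Scn10a*, *Nefh* and *Trpv1*. These 3 of 7 markers passed at an unadjusted p under 0.05, against 5.68% of all genes, all with the higher value after scramble. *Scn10a* averaged 8.29 ± 1.40 after scramble and 3.96 ± 0.69 after lipofectamine (log2 fold change 4.33, SE 1.69, adjusted p = 0.783 from limma), *Nefh* 8.81 ± 0.48 and 5.52 ± 0.14 (3.29, SE 1.37, adjusted p = 0.828) and *Trpv1* 7.06 ± 1.43 and 3.88 ± 1.35 (3.18, SE 1.23, adjusted p = 0.776; SD, n = 2 each, scramble given first). Leaving out any of the 4 arrays lost at least 2 of these calls. Without lipofectamine with miR-21 exosomes replicate 2 none of the 3 remained, without replicate 1 of either group *Trpv1* remained, and with replicate 2 of scramble with miR-21 exosomes left out *Scn10a* remained and *Scn9a* passed at −4.24 (adjusted p = 0.738). With GFP exosomes 0 of 7 passed with limma, against 2.54% of all genes, and 0 with the unpaired test. There *Scn10a* was at 0.30, *Nefh* at 0.46 and *Trpv1* at −0.98, and the largest log2 fold changes were 1.71 for *Prph* and −1.53 for *P2rx3*. These comparisons and those of the exosomes share arrays, so their values are not independent of each other.

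Probe sets annotated to the same marker did not move together. Over the 12 arrays Pearson's r was −0.09 for the 2 probe sets of *Tac1*, between −0.14 and 0.26 for the 3 pairs of *P2rx3*, between −0.22 and 0.46 for the 6 pairs of *Prph* and between −0.11 and 0.47 for the 10 pairs of *Scn9a*. This was no property of the markers alone, since the 2 brightest probe sets of a gene had a median r of 0.069 over 9010 genes, and 0.23 over the 2253 of them whose second probe set was brightest. The direction of the exosome comparison over all transfections went with the probe set chosen: for *Tac1* it was −1.50 and 1.91, for *Scn9a* 2 of 5 probe sets were higher and 3 lower with miR-21 exosomes (−1.48 to 1.95), and for *Prph* 3 of 4 were higher against the lower brightest one (−0.15 to 1.44). All 3 probe sets of *P2rx3* were higher with miR-21 exosomes (0.19 to 2.05), and so they were after antagomir-21 (1.96 to 4.19). Calls at an unadjusted p under 0.05 went with the probe set too. Over all transfections 1 dimmer probe set of *P2rx3* passed at 2.05 (adjusted p = 0.804 from limma over all probe sets) and 1 dimmer probe set of *Scn9a* at 1.95 (adjusted p = 0.865), although neither gene passed by its brightest one. The same probe set of *Scn9a* passed after scramble at 3.48 (adjusted p = 0.832), against −2.45 for the brightest, and after lipofectamine at 3.27. After antagomir-21 the probe set of *P2rx3* that passed was the brightest of its 3, and 1 dimmer probe set of *Prph* passed at 4.37 (adjusted p = 0.668). *Trpv1*, *Scn10a* and *Nefh* have 1 probe set each and so no such check.

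**Figure D4:**
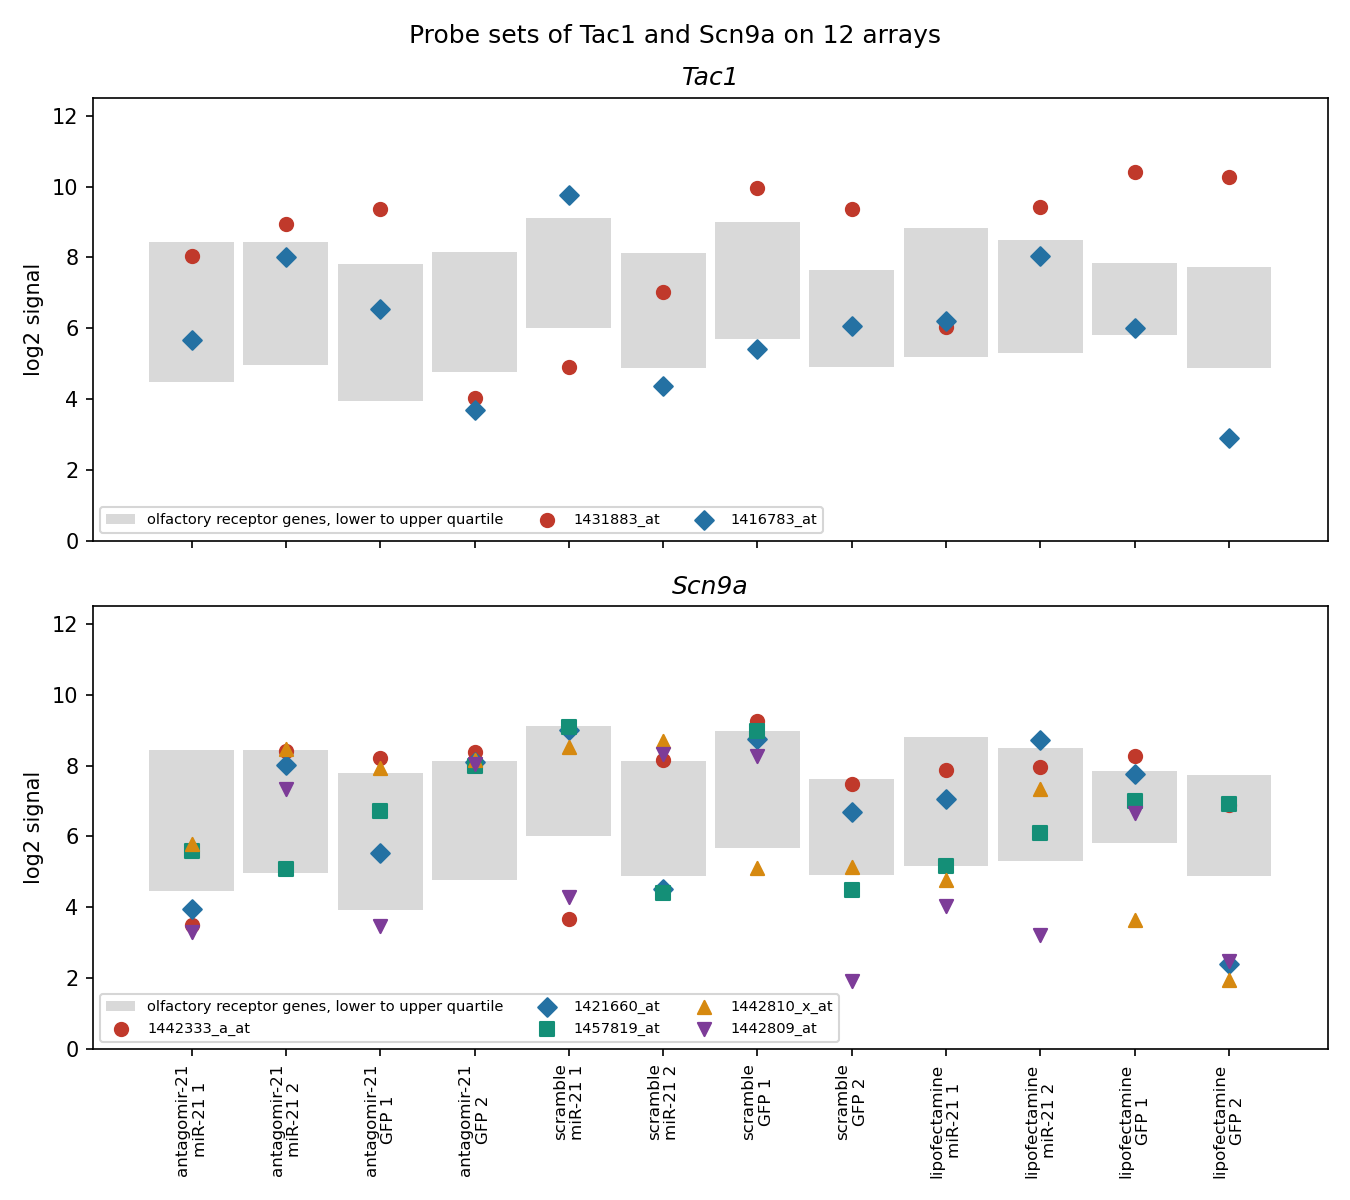
Log2 signal (y axis) of the 2 probe sets of *Tac1* (upper panel) and the 5 of *Scn9a* (lower panel) on the 12 arrays (x axis), with the probe set used in red and gray bars from the lower to the upper quartile of the olfactory receptor genes. For *Tac1* the probe set used is above the bar on 7 arrays and the other on 1, and their r is −0.09.

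For the 3 brightest markers the gene with the most similar pattern over the 12 arrays was looked up among the 18186 genes outside the list. It was *3110045C21Rik* for *Tac1*, *Adad1* for *Scn9a* and *Tas1r2* for *Nefh*, each with Pearson's r of 0.95. A total of 57 genes had r of at least 0.8 with *Tac1*, 60 with *Scn9a* and 28 with *Nefh*. These are the highest of many correlations over 12 arrays that share groups and scaling, and they are given as a description.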

How the data were processed

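RNA of PMs from 12 arrays in 6 groups of 2 was analyzed, with groups and replicate numbers from the labels; the methods give 3 replicates. The methods call the replicates biological and collected independently, but the labels do not say that they were separate cultures. The p-values measure the spread between arrays, and how much of it is technical is not known. The kits named are NuGEN's in the labels and WT Pico in the methods. Values deposited by the authors are log2 signals, 1 per probe set and array. The methods describe RMA with quantile normalization, but the deposited log2 values share a trimmed mean (496 to 499 on the linear scale, 2% removed at each end) and not a distribution (medians 7.92 to 8.58); the sources used here do not name the software and give no scan dates or detection calls.

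Of 45037 probe sets, 34945 had 1 gene symbol in the platform annotation (34741 updated through their gene ID), 932 had several and 9160 were not listed. The probe set with the highest mean stood for each of 18193 genes, which favors genes with several (9010). Tests were run in limma 3.58.1 (R 4.3.3; 6 group means; for all transfections, terms for transfection and exosome) with Benjamini-Hochberg adjustment over all genes, and 95% confidence intervals come from the same fit. Arrays have no read depth, and their number limits the precision. The procedure was tested on simulated data. Alternatives were quantile normalization, median centring, 32 added to the linear signal, a filter at the median gene, the mean of all probe sets, the second brightest probe set (added later), a replicate block, an unpaired test and leaving out each array. Markers and lists were chosen with earlier results of these data known. Named genes were all markers and up to 3 of the brightest genes of lists discussed. Some dimmer genes of these lists and the gene most like each of the 3 brightest markers were also named.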

Additional observations from a re-analysis of the deposited data

Results flagged for a closer look

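*Tac1* on antagomir-21 with GFP exosomes replicate 2 stood far below the other 5 arrays with GFP exosomes: 4.02 on the log2 scale, against 9.36 to 10.40. The gap to the next array was 0.837 of the range of the 6 arrays, above the critical share of 0.625. Of 14 sets of 6 arrays looked at, 7 markers with 2 kinds of exosomes, it was the 1 beyond that value. By chance alone about 1 in 20 single sets goes beyond it, so 1 among 14 sets can arise by chance. The dimmer probe set of *Tac1* was at 3.70 on this array, within its range of 2.89 to 6.53 over the 6 arrays with GFP exosomes.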

How the results depend on the processing

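The number of markers past an adjusted p under 0.05 was 0 in all 9 comparisons under every alternative run. At an unadjusted p under 0.05 (of 7 markers) the exosome comparison after antagomir-21 gave 2, and 1 with the unpaired test. After scramble it gave 0, and 2 with quantile normalization (*Tac1* and *Scn10a*), 1 with median centring and 1 with 32 added to the linear signal; after lipofectamine 0, and 1 with the mean of all probe sets. Antagomir-21 against scramble gave 0 with miR-21 exosomes, and 1 with 32 added and 1 with the unpaired test, and 1 with GFP exosomes, and 0 with the mean of all probe sets and 0 with the unpaired test. Scramble against lipofectamine with miR-21 exosomes gave 3, and 1 with the unpaired test. Of these 3, *Nefh* no longer passed with quantile normalization, and *Trpv1* no longer passed with 32 added to the linear signal. The difference of the exosome effect between transfections gave 2, and 1 with quantile normalization. The filter at the median gene left 1 marker, *Tac1*, which passed after scramble (count 1) and in no other comparison (count 0 after antagomir-21, in antagomir-21 against scramble with GFP exosomes, in scramble against lipofectamine with miR-21 exosomes and for the difference).

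With each array left out in turn, these counts were between 0 and 1 over all transfections, after scramble, after lipofectamine and for antagomir-21 against scramble with miR-21 exosomes, between 1 and 4 after antagomir-21 (1 without its miR-21 exosomes replicate 1, 4 without replicate 2), between 0 and 2 with GFP exosomes in the same comparison (0 without scramble with GFP exosomes replicate 1), and between 0 and 3 for scramble against lipofectamine with miR-21 exosomes. Over all transfections the log2 fold change of *Scn10a* was then between −0.14 and 1.16, with −0.14 and −0.08 without replicate 1 of scramble with GFP and with miR-21 exosomes, and that of *Prph* between −0.77 and 0.30. The mean of all probe sets gave 0.20 for *Tac1* and 0.97 for *Prph*, and the second brightest probe set, an alternative chosen after seeing the data, 1.91 for *Tac1*, 1.44 for *Prph* and 0.34 for *Scn9a*. Marker signals above the olfactory receptor quartile were 12 of 84 with the mean of all probe sets. The causes were not tested. Same-numbered arrays did not deviate together (r between −0.19 and 0.17 over 15 pairs of groups), and with a replicate block the counts were 0 over all transfections, 2 after antagomir-21 and 3 for scramble against lipofectamine with miR-21 exosomes, as without it.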
